A study of Mus musculus with 18 samples.

Results

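The genes of the integrated stress response described here were followed through 18 poly(A) RNA-seq libraries of C2C12 cells, a mouse myoblast line that forms myotubes in culture. They were chosen by symbol as Atf4, Ddit3, Atf3, Asns, Chac1, Trib3, Sesn2, Psat1, Phgdh and Hspa5, which are 10 of the 35275 genes in the deposited table. All 10 matched a single row each, and all 10 passed the filter on low values, in every group and not only where they were high.

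The libraries fall into 6 groups of 3 biological replicates. Control cells are labelled wild-type, and the other cells overexpress MUNC, a long noncoding RNA from upstream of Myod1, either in its spliced form (MUNC spliced) or from its genomic sequence (MUNC genomic). Each kind of cell was taken in growth medium (GM, 20% fetal bovine serum, at about 80% confluency) and after 3 days in differentiation medium (DM3, 2% horse serum). All groups share the C2C12 background, which the labels describe as negative for PAX7. The labels do not say which vector drives MUNC, whether each line is 1 clone or a pool, or whether the control carries an empty vector, so a difference between lines and an effect of MUNC cannot be told apart. MUNC itself was not analysed here.

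In the integrated stress response, kinases that sense amino acid shortage, unfolded protein in the endoplasmic reticulum (ER), haem shortage or double-stranded RNA phosphorylate the translation factor eIF2 alpha. General translation then slows while the mRNA of Atf4, a bZIP transcription factor, is translated more, so that the amount of Atf4 mRNA is only part of its control. ATF4 protein binds composite sites shared with C/EBP factors and switches on amino acid synthesis and transport, tRNA charging and, when stress lasts, the factors Ddit3 (CHOP) and Atf3 and the effectors Trib3, Chac1 and Sesn2. Hspa5 (BiP) is the main ER chaperone and is controlled above all by the ATF6 and XBP1 arms of the unfolded protein response, for which it serves as a contrast here. Differentiating myoblasts leave the cell cycle, and CHOP is known to rise early in that process.

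Sequences from the start regions of 4 of the genes are shown because they hold the letters that the pathway's factors are known to bind. The RefSeq promoter table (GRCm38.p6, 250 bases before to 50 after each start) held windows for all 10 genes. Both strands were searched for the core of the C/EBP-ATF composite site (TGATGNAA), for the ER stress element (CCAAT, 9 bases, CCACG) and for the cAMP response element TGACGTCA. The composite core is present in 3.97% of all 32851 windows of that length and was found in Atf3, Asns, Chac1 and Trib3. The ER stress element is present in 0.119% of windows and was found in Hspa5 alone of the 10. TGACGTCA is present in 1.79% of windows and was found in none of them. The stretches below run 5′ to 3′ on the gene's strand, with the match in capitals. In Asns and Hspa5 an exon of the GENCODE M21 annotation reaches over the match, so only the match with its closest bases is shown, and the match in Trib3 lies 15 bases after the RefSeq start and is not shown.
Asns, minus strand of chr6:7693214-7693243: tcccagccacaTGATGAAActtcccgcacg
Atf3, minus strand of chr1:191183386-191183493, within an intron of the longest GENCODE M21 model: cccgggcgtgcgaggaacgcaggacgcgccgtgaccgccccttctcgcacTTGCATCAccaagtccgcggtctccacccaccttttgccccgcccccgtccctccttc
Chac1, plus strand of chr2:119350999-119351106, upstream of the gene: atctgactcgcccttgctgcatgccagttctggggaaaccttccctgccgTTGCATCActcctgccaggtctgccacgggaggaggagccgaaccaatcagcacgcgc
Hspa5, plus strand of chr2:34772020-34772048: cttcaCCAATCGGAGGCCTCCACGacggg
The first base of the match lies at -23 in Asns, -110 in Atf3, -193 in Chac1 and -65 in Hspa5, counted back from the RefSeq start. These matches are letters in a window, not measured binding, and no match says only that these letters are not there.

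Between 38416702 and 68788327 reads were assigned to genes per library. Values are in FPM, the authors' read counts divided by 1 size factor per library, and the 10 genes held at least 118 reads (Atf3) in every library. Muscle markers (8 genes) summed to 145 to 178 FPM in control GM and to 282 to 394 FPM in control DM3, both led by Myf5. In MUNC spliced cells they summed to 359 to 516 FPM in GM, led by Cdh15, and to 536 to 1143 FPM in DM3, led by Chrna1. In MUNC genomic cells they summed to 422 to 732 FPM in GM and to 1159 to 1347 FPM in DM3, both led by Des. The defining markers Myod1, Myog and Ckm were at or near 0 in control cells, where the DM3 means were 0.0993, 0.344 and 0.0444 FPM. Myog stood at 226, 52.6 and 41.0 FPM in MUNC spliced DM3 and at 7.89, 14.7 and 6.50 FPM in MUNC genomic DM3, so that this marker moves with the lines compared below. Dcn led the fibroblast markers (6 genes) except in MUNC genomic GM, where Pdgfra did. The fibroblast markers moved with differentiation, from 11.6 to 91.8 FPM over the GM libraries to 135 to 568 FPM over the DM3 libraries. The epithelial list, led by Krt14 in GM, went the other way, from 23.8 to 135 FPM in GM to 0.809 to 35.3 FPM in DM3. Endothelial markers summed to at most 0.619 FPM in control and MUNC spliced cells and to 3.95 to 7.40 FPM in MUNC genomic cells, nearly all from Cdh5, and adipocyte and leukocyte markers stayed at or under 5.53 FPM in all groups. The part of all these genes in the results was not tested. In such bulk libraries, fewer cells that express a gene and less RNA per cell cannot be told apart.

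**Figure D1:**
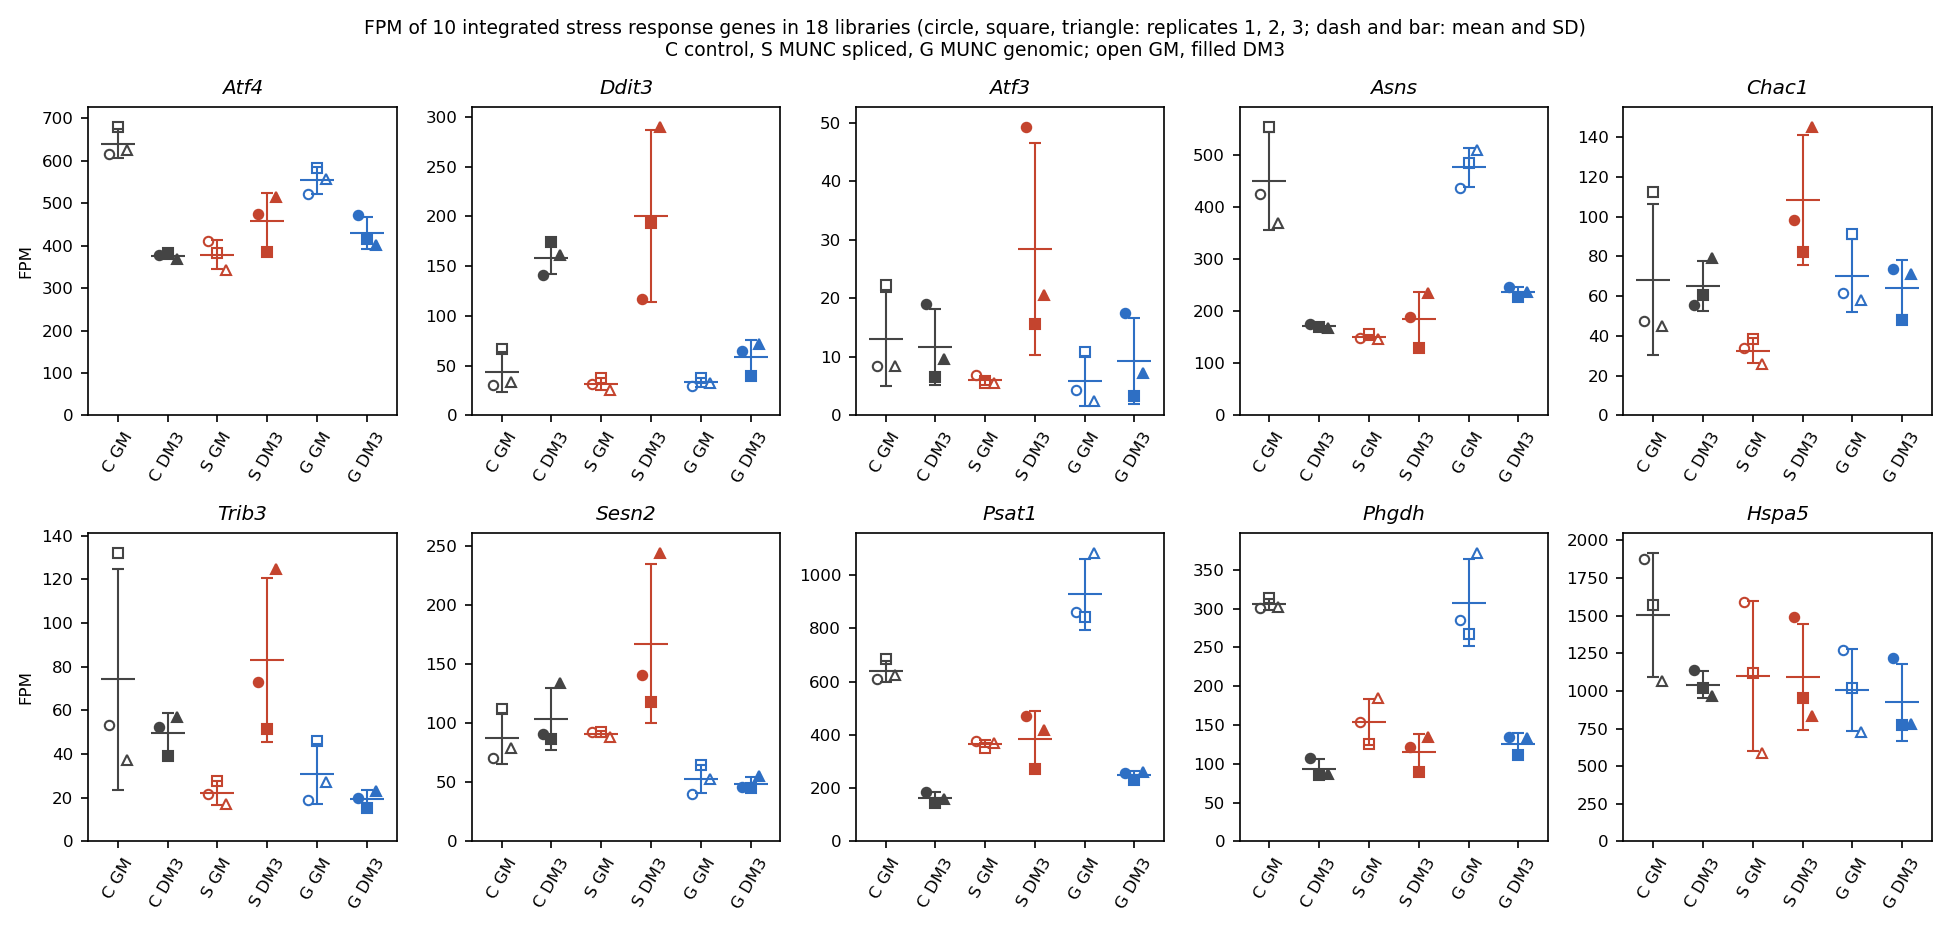
FPM (vertical axis, from 0) of the 10 genes in each of the 18 libraries, by group (horizontal axis: C control, S MUNC spliced, G MUNC genomic). Points are replicates, and dashes with bars are the mean and SD of 3 replicates. Psat1 and Phgdh are lower in DM3 than in GM in control and MUNC genomic cells, while Chac1 and Trib3 are higher in DM3 in MUNC spliced cells, where Trib3 reaches 125 FPM.

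On differentiation, the genes for amino acid synthesis fell together with Atf4 in control and MUNC genomic cells. In MUNC spliced cells no fall was called, and the stress effectors Ddit3, Atf3, Chac1, Trib3 and Sesn2 were called higher. Ddit3 was also called higher in control and MUNC genomic cells. Of these effectors, only Chac1 and Trib3 had a change called as different from that in control cells. The MUNC spliced calls of Atf3 and Sesn2 did not hold in every fit with 1 library left out. Differentiation names DM3 against GM throughout, and the formation of myotubes was not measured. In control DM3 the markers Myod1, Myog and Ckm stayed at or near 0, so these markers do not show a myogenic response in control cells. The muscle list as a whole summed higher, from 145 to 178 FPM in control GM to 282 to 394 FPM in control DM3. Myf5 led it in both media, at a mean of 71.8 and 103 FPM. Whether control cells had a myogenic response was not tested. A gene was called where limma's test on log2(FPM + 1), fitted over all 18 libraries and 13869 genes, gave a Benjamini-Hochberg adjusted p under 0.05. Differences below are on that log2 scale. Their standard error (SE) rests on 1 estimate of each gene's spread over all 18 libraries, not on the groups compared alone. The spread itself differed between groups, and for Asns the SD was 2.18% of the mean in control DM3 and 28.5% in MUNC spliced DM3. In control cells 1 of the 10 genes was called higher in DM3 and 4 lower, against 29.6% and 28.6% of all genes tested. In MUNC spliced cells 5 were higher and 0 lower, against 17.2% and 18.4% of all genes. In MUNC genomic cells 1 was higher and 4 were lower, against 26.3% and 25.1%. The median difference over the 10 genes was -0.44 in control, 0.54 in MUNC spliced and -0.24 in MUNC genomic cells, and over all genes it was 0.02, -0.01 and 0.02.

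Between lines, MUNC spliced cells in GM had 0 of the 10 genes higher than control and 6 lower, against 18.2% and 17.3% of all genes. MUNC genomic cells in GM had 1 higher and 2 lower than control, against 12.2% and 14.5%. In DM3, MUNC spliced cells had 2 higher and 0 lower than control, against 22.3% and 21% of all genes, so that this count is near the background. In DM3, MUNC genomic cells had 3 higher and 3 lower, against 19.3% and 20.9%. MUNC spliced cells set against MUNC genomic cells had 1 higher and 5 lower in GM, against 19.9% and 16%, and 5 higher and 0 lower in DM3, against 23.4% and 20.8%. The median over the 10 genes was -0.83 for MUNC spliced against control in GM and 0.47 in DM3, beside -0.02 and 0.01 over all genes. Comparisons that use the same libraries share their errors.

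**Figure D2:**
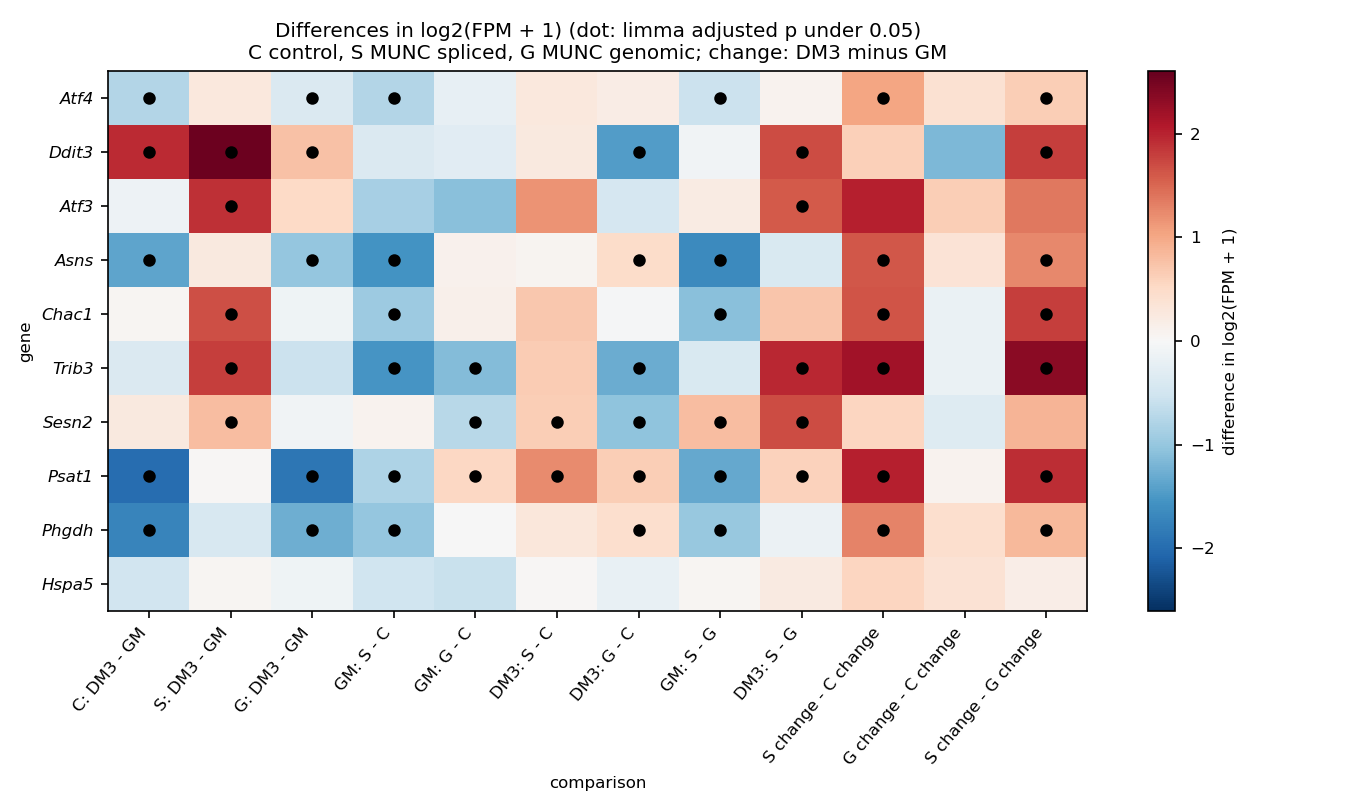
Differences in log2(FPM + 1) of the 10 genes (rows) in 12 comparisons (columns; C control, S MUNC spliced, G MUNC genomic), with a dot where limma's adjusted p is under 0.05. Red is higher in the first named and blue lower. The second column has 5 dots, all higher, and the Hspa5 row has none.

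Atf4, the factor at the head of the response (chr15:80255184-80257541, plus strand), had a narrow, 1.70-fold range of group means. Control GM libraries had 616, 679 and 626 FPM (mean 640.5 ± 34.0, SD, n = 3) and control DM3 libraries 377, 382 and 369 FPM (376 ± 6.67). The groups did not overlap, and Atf4 fell by 0.77 on the log2 scale (SE 0.112, adjusted p = 2.77e-05). MUNC genomic libraries went from 521, 583 and 558 FPM in GM to 472, 415 and 402 FPM in DM3, a fall of smaller size without overlap (log2 -0.37, SE 0.112, adjusted p = 0.0119). Without MUNC genomic DM3 replicate 3 this was -0.32 and was no longer called (adjusted p = 0.0519). MUNC spliced cells started low, with 411, 382 and 344 FPM in GM, and had 475, 385 and 516 FPM in DM3. All 3 GM values lay far below those of control GM (log2 -0.76, adjusted p = 8.41e-05) and below those of MUNC genomic GM (log2 -0.55, adjusted p = 0.00117). The DM3 value of replicate 2 lay within the GM range, and the difference on differentiation of 0.27 (95% interval 0.03 to 0.51) was not called (adjusted p = 0.0737). It was called without MUNC spliced DM3 replicate 2 (0.39, adjusted p = 0.0178) and with DESeq2 (0.31, adjusted p = 0.0194). In DM3 the MUNC spliced value was 0.28 above control with no overlap (adjusted p = 0.0581), and it was called with the replicate number as a block (adjusted p = 0.0428), without MUNC spliced DM3 replicate 2 (0.40) and with edgeR, DESeq2, equal library sums or quantile normalization (adjusted p from 0.0117 to 0.0411).

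Ddit3, which encodes the bZIP factor CHOP (chr10:127290774-127296288, plus strand), was the one gene of the 10 called higher on differentiation in all 3 kinds of cell. Control libraries had 30.5, 66.5 and 33.2 FPM in GM and 141, 174 and 161 FPM in DM3, a 3.66-fold higher mean (log2 1.93, SE 0.309, adjusted p = 6.52e-05). MUNC spliced libraries had 31.8, 37.1 and 25.2 FPM in GM and 117, 194 and 290 FPM in DM3, a 6.38-fold higher mean (log2 2.56, SE 0.309, adjusted p = 2.16e-05). Neither pair of groups overlapped, although the DM3 values of MUNC spliced cells were spread over more than a 2-fold range. MUNC genomic libraries had 29.4, 37.9 and 32.4 FPM in GM and 64.5, 39.8 and 71.4 FPM in DM3, where replicate 2 came close to the GM range (log2 0.76, adjusted p = 0.0488). With 1 of its libraries left out, 5 of the 6 fits no longer called it (all but that without MUNC genomic DM3 replicate 2), with values from 0.60 to 0.86 in those 5, and with no filter on low values its adjusted p was 0.105. In GM the 3 kinds of cell overlapped and none of the differences was called. In DM3, Ddit3 was lower in MUNC genomic cells than in control (log2 -1.46, SE 0.309, adjusted p = 0.00128) and than in MUNC spliced cells, which stood 1.70 above MUNC genomic cells (adjusted p = 0.00029).

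Atf3, a stress-induced bZIP repressor that can also activate (chr1:191170296-191218039, minus strand), had the lowest level of the 10 per length, a mean of 5.77 FPM per kb of exon over the 6 groups, and the widest spread. Control libraries had 8.45, 22.3 and 8.47 FPM in GM and 19.0, 6.61 and 9.60 FPM in DM3, which overlapped (log2 -0.12, 95% interval -1.30 to 1.05). MUNC spliced libraries had 6.92, 5.59 and 5.59 FPM in GM and 49.2, 15.7 and 20.5 FPM in DM3, so that every DM3 value was above every GM value (log2 1.90, SE 0.557, adjusted p = 0.0144). Replicate 1 stood apart, and without it the difference was 1.43 and was not called (adjusted p = 0.0621). MUNC genomic libraries had 4.41, 10.8 and 2.48 FPM in GM and 17.5, 3.36 and 7.18 FPM in DM3, again overlapping. In DM3, MUNC spliced exceeded MUNC genomic by 1.59 (adjusted p = 0.0291), although one MUNC genomic library lay within the MUNC spliced range. This call was lost with edgeR (adjusted p = 0.0511), with no filter (0.0665), with only the groups compared in the fit (0.0574), and also without MUNC spliced DM3 replicate 1 (1.12) or MUNC genomic DM3 replicate 2 (1.09) or replicate 3 (1.54).

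Chac1, an enzyme that cleaves glutathione (chr2:119351229-119354381, plus strand), rose on differentiation in MUNC spliced cells. They had 33.7, 38.2 and 25.6 FPM in GM and 98.4, 82.0 and 145 FPM in DM3, without overlap (log2 1.69, SE 0.306, adjusted p = 0.000595). Control libraries had 47.5, 112 and 45.2 FPM in GM and 55.6, 60.3 and 79.4 FPM in DM3, with 1 GM library above all of DM3 (log2 0.05, 95% interval -0.60 to 0.69). MUNC genomic libraries had 61.6, 91.3 and 57.9 FPM in GM and 73.8, 48.2 and 71.0 FPM in DM3, and also overlapped. Those 2 lines thus showed no shift beyond their spread. In GM the MUNC spliced value was below control (log2 -0.94, adjusted p = 0.0257) and below MUNC genomic (log2 -1.08, adjusted p = 0.0117). The first difference shrank to -0.52 without control GM replicate 2 (adjusted p = 0.139) and was -0.78 without MUNC spliced GM replicate 3 (adjusted p = 0.0903), and its adjusted p was 0.0603 with no filter and 0.0803 with only the groups compared. The second was -0.88 without MUNC genomic GM replicate 2 (adjusted p = 0.0563). In DM3, MUNC spliced was 0.70 above control (adjusted p = 0.0745) and 0.73 above MUNC genomic (adjusted p = 0.0636) without overlap. Both were called with DESeq2 (adjusted p = 0.0454 and 0.0477) and with only the groups compared (0.0392 and 0.0398).

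Trib3, a pseudokinase that feeds back on ATF4 and CHOP (chr2:152337422-152344032, minus strand), had a pattern like that of Chac1 with a low MUNC genomic line in addition. MUNC spliced libraries had 21.5, 27.7 and 16.9 FPM in GM and 72.7, 51.7 and 125 FPM in DM3, a 3.77-fold higher mean without overlap (log2 1.80, SE 0.403, adjusted p = 0.00275). Control libraries had 53.1, 132 and 37.3 FPM in GM and 52.3, 39.2 and 57.1 FPM in DM3 (log2 -0.38, 95% interval -1.24 to 0.47). Values in MUNC genomic cells were 18.9, 45.9 and 27.4 FPM in GM and 20.0, 15.4 and 23.3 FPM in DM3 (log2 -0.56, 95% interval -1.41 to 0.30). Control GM replicate 2 was high for this gene. MUNC spliced GM was lower than control GM (log2 -1.53, adjusted p = 0.00794), and without that library it was lower by less (-1.01, adjusted p = 0.043). MUNC genomic cells were lower than control in GM (log2 -1.13, adjusted p = 0.0484), but the groups overlapped and the call was lost without control GM replicate 1 (-1.26) or 2 (-0.61) or MUNC genomic GM replicate 1 (-0.84) or 3 (-1.09). It was also lost with equal library sums, quantile normalization, no filter or only the groups compared (adjusted p from 0.0554 to 0.151). In DM3, MUNC genomic was lower than control without overlap (log2 -1.30, adjusted p = 0.0168), at -1.15 without MUNC genomic DM3 replicate 2 and -1.19 without control DM3 replicate 3, neither of which was called. MUNC spliced DM3 exceeded MUNC genomic DM3 by 1.96 (SE 0.403, adjusted p = 0.000889).

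Sesn2, which encodes the leucine sensor and stress protein sestrin 2 that restrains mTORC1 and is also a p53 target (chr4:132492032-132510501, minus strand), was lowest in the MUNC genomic line. MUNC genomic libraries had 40.4, 64.7 and 53.3 FPM in GM and 46.2, 45.3 and 55.1 FPM in DM3. Control libraries had 70.9, 112 and 79.1 FPM in GM and 90.8, 87.1 and 134 FPM in DM3, and lay above MUNC genomic in both media. The difference was -0.71 in GM (adjusted p = 0.0385) and -1.05 in DM3 (SE 0.242, adjusted p = 0.00242). In GM it was lost without control GM replicate 2 (-0.52) or 3 (-0.77) or MUNC genomic GM replicate 1 (-0.54) or 3 (-0.73), and with equal library sums (adjusted p = 0.0622), no filter (0.0836) or only the groups compared (0.0655). MUNC spliced libraries had 92.4, 92.3 and 88.2 FPM in GM and 141, 118 and 244 FPM in DM3. These DM3 values were above GM without overlap (log2 0.80, adjusted p = 0.017) and above control DM3 with overlap (log2 0.64, adjusted p = 0.0422). Both rested on MUNC spliced DM3 replicate 3, without which they were 0.50 (adjusted p = 0.108) and 0.33 (adjusted p = 0.238). The first was also lost without MUNC spliced GM replicate 3 (0.78), and the second without control DM3 replicate 1 (0.56) or 2 (0.53). With only the groups compared their adjusted p were 0.0596 and 0.109, and with no filter the second had 0.085. MUNC spliced exceeded MUNC genomic by 0.80 in GM (adjusted p = 0.0167), which was not called without MUNC genomic GM replicate 1 (0.62), and by 1.69 in DM3 (adjusted p = 2.89e-05).

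The enzymes of amino acid synthesis, like Atf4, fell on differentiation in control and MUNC genomic cells. Asns, asparagine synthetase (chr6:7675169-7693254, minus strand), had 425, 554 and 371 FPM in control GM and 175, 169 and 169 FPM in control DM3, a 2.63-fold lower mean (log2 -1.37, SE 0.167, adjusted p = 5.12e-06). MUNC genomic libraries went from 436, 485 and 510 FPM to 247, 227 and 237 FPM (a 2.01-fold lower mean, adjusted p = 0.000125). In both, every DM3 value was below every GM value. MUNC spliced libraries were already at 148, 156 and 147 FPM in GM, the lowest group mean of this gene, and had 188, 130 and 235 FPM in DM3, on both sides of the GM values (log2 0.25, 95% interval -0.10 to 0.61). Asns in MUNC spliced GM was thus 2.99-fold lower than in control GM (log2 -1.56, adjusted p = 3.03e-06) and 3.17-fold lower than in MUNC genomic GM (log2 -1.66, adjusted p = 9.18e-07). In DM3, MUNC genomic stood above control (log2 0.47, adjusted p = 0.035) without overlap, but the call was lost with any 1 of the 6 libraries left out (0.44 to 0.50) and with no filter (adjusted p = 0.0661).

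Psat1, phosphoserine aminotransferase in the serine pathway (chr19:15904678-15947337, minus strand), had the largest fall on differentiation of the 10 genes in control cells. It had 610.5, 684 and 624 FPM in control GM and 185, 142 and 157 FPM in control DM3 (log2 -1.98, SE 0.164, adjusted p = 1.86e-07). MUNC genomic libraries went from 862, 842 and 1082 FPM to 258, 232 and 260 FPM (log2 -1.88, adjusted p = 5.71e-07). In MUNC spliced cells there were 378, 352 and 368 FPM in GM and 471, 271 and 417 FPM in DM3, with no shift beyond their spread (log2 0.04, 95% interval -0.31 to 0.39). The order of the 6 groups was control DM3, MUNC genomic DM3, MUNC spliced GM, MUNC spliced DM3, control GM and MUNC genomic GM, and of the neighbours only the pair of MUNC spliced groups overlapped. MUNC spliced was therefore below control in GM (log2 -0.80, adjusted p = 0.00134) and above it in DM3 (log2 1.22, SE 0.164, adjusted p = 2e-05). It was likewise below MUNC genomic in GM (log2 -1.33, adjusted p = 9.18e-06) and above it in DM3 (log2 0.59, adjusted p = 0.00803). MUNC genomic was above control in DM3 (log2 0.63, adjusted p = 0.00576) and in GM (log2 0.53, adjusted p = 0.0243). The GM difference was not called without control GM replicate 1 (0.50) or 3 (0.51) or MUNC genomic GM replicate 3 (0.42), nor with no filter (adjusted p = 0.0515).

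Phgdh, phosphoglycerate dehydrogenase, which starts the serine pathway (chr3:98313170-98339990, minus strand), had 301, 313 and 302 FPM in control GM and 108, 85.0 and 86.3 FPM in control DM3 (log2 -1.71, SE 0.167, adjusted p = 7.02e-07). The MUNC genomic values were 285, 267 and 371 FPM in GM and 134, 111 and 133 FPM in DM3 (log2 -1.27, adjusted p = 1.46e-05). Both lines fell without overlap. The MUNC spliced values were 153, 125 and 184 FPM in GM and 122, 89.5 and 134 FPM in DM3, which overlapped (log2 -0.42, 95% interval -0.77 to -0.07, adjusted p = 0.0605). This was the one enzyme of the group with an interval below 0 in these cells, and it was called with equal library sums (-0.45), with quantile normalization (-0.47), without MUNC spliced DM3 replicate 3 (-0.54) and without MUNC spliced GM replicate 2 (-0.56). In GM, MUNC spliced was below control (a 1.98-fold lower mean, adjusted p = 0.000253) and below MUNC genomic (log2 -0.99, adjusted p = 0.000212). In DM3, MUNC genomic was above control by 0.44 (adjusted p = 0.0466), a call lost without MUNC genomic DM3 replicate 1 (0.39) or 3 (0.40) or control DM3 replicate 2 (0.38) or 3 (0.39), and with no filter (adjusted p = 0.0848).

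Hspa5, the ER chaperone (chr2:34771970-34777547, plus strand), had the highest level of the 10 per length, a mean of 263 FPM per kb over the 6 groups, and was called in 0 of 12 comparisons by limma, by edgeR and by DESeq2, with none at an unadjusted p under 0.05. Control libraries had 1880, 1569 and 1067 FPM in GM and 1140, 1020 and 964 FPM in DM3. Values in MUNC spliced cells were 1591, 1118 and 589.6 FPM in GM and 1494, 951 and 833 FPM in DM3. In MUNC genomic cells they were 1274, 1017 and 730.1 FPM in GM and 1217, 773 and 781 FPM in DM3. All 6 groups overlapped their neighbours, and replicate 1 was the highest library in 6 of 6 groups. The spread within groups thus went with the replicate number, which is shared over the lines. With that number as a block, 3 differences passed: control DM3 against GM (log2 -0.50, adjusted p = 0.0204), MUNC spliced against control in GM (log2 -0.53, adjusted p = 0.0217) and MUNC genomic against control in GM (log2 -0.58, adjusted p = 0.0166). Without the block their adjusted p were 0.207, 0.224 and 0.215. The matching 95% intervals of the difference were -1.19 to 0.20, -1.22 to 0.16 and -1.27 to 0.12.

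The change on differentiation itself was compared between lines with an interaction term. In MUNC spliced cells it exceeded that of control cells in 6 of the 10 genes and fell short in 0, against 7.43% and 6.94% of all genes. The genes were chosen with earlier results of these data known, so these shares describe the setting and do not test the list. The excess was 2.18 for Trib3 (SE 0.57, adjusted p = 0.02), 2.02 for Psat1 (SE 0.232, adjusted p = 0.000118), 1.64 for Chac1 (adjusted p = 0.021), 1.62 for Asns (adjusted p = 0.000754), 1.29 for Phgdh (adjusted p = 0.00316) and 1.03 for Atf4 (adjusted p = 0.000935). Ddit3 (0.63, adjusted p = 0.349), Sesn2 (0.56), Hspa5 (0.55) and Atf3 (2.03, adjusted p = 0.0931) were not called. All 6 calls held without control GM replicate 2, where Trib3 was 1.67 and Chac1 1.22, while without control DM3 replicate 2 Chac1 (1.59, adjusted p = 0.0512) and Trib3 (2.03, adjusted p = 0.0542) were not called. Atf4 and the 3 enzymes fell in control cells and had no called change in MUNC spliced cells, while Chac1 and Trib3 had no called change in control cells and rose in MUNC spliced cells.

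In MUNC genomic cells the change on differentiation differed from control in 0 of the 10 genes by limma, edgeR and DESeq2. Of all genes, 3.56% were higher and 5.25% lower by limma, so that this count is near the background. At an unadjusted p under 0.05 there were 2, Ddit3 (-1.17, adjusted p = 0.118) and Atf4 (0.40, adjusted p = 0.144). The 95% interval for Psat1 was -0.39 to 0.59, whose upper end is under the 2.02 seen in MUNC spliced cells. Without control GM replicate 2, 1 gene was called, with a lower change in MUNC genomic than in control cells.

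MUNC spliced and MUNC genomic cells were then set against each other in their change on differentiation, a comparison added after the values were seen. It was higher in MUNC spliced cells for 7 of the 10 genes and lower for 0, against 5.36% and 5.17% of all genes. The differences were 2.36 for Trib3 (adjusted p = 0.0152), 1.92 for Psat1 (adjusted p = 7.17e-05), 1.81 for Chac1 (adjusted p = 0.0144), 1.79 for Ddit3 (adjusted p = 0.0158), 1.26 for Asns (adjusted p = 0.00287), 0.85 for Phgdh (adjusted p = 0.0303) and 0.64 for Atf4 (adjusted p = 0.0179). Phgdh was not called in 7 of the 12 fits that leave out 1 library (0.71 to 0.89 in those 7), namely without MUNC genomic DM3 replicate 2 or 3, MUNC genomic GM replicate 3, MUNC spliced DM3 replicate 1 or 3, or MUNC spliced GM replicate 1 or 2. Its adjusted p was 0.054 with quantile normalization, 0.0612 with no filter and 0.0629 with only the groups compared. Sesn2 was called with DESeq2 alone (1.01, adjusted p = 0.0479). Atf4 was not called without MUNC genomic DM3 replicate 3 (0.59, adjusted p = 0.0517).

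The other genes of the pathway are given by role, with called genes counted beside the shares of all genes called in the same comparison. These lists too were chosen with earlier results of these data known, so the counts are descriptions. On differentiation those shares were 29.6% higher and 28.6% lower in control, 17.2% and 18.4% in MUNC spliced, and 26.3% and 25.1% in MUNC genomic cells. For the interaction of MUNC spliced with differentiation they were 7.43% and 6.94%. Of 20 cytosolic aminoacyl-tRNA synthetases, which charge tRNAs, 18 were lower and 0 higher in control DM3 than in GM (median -0.96), with Hars the lowest (log2 -1.35). In MUNC genomic cells 15 were lower and 0 higher (median -0.74). In MUNC spliced cells 5 were lower and 1, Sars (log2 0.37), was higher (median 0.10), which stand beside 18.4% and 17.2% of all genes. The interaction of MUNC spliced with differentiation was called higher for 14 of the 20, with Lars the highest (log2 1.46), called lower for Qars (log2 -0.52), and not called for the other 5.

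Of 12 tested genes for amino acid and one-carbon synthesis, 8 were lower on differentiation in control cells and 8 in MUNC genomic cells, with 0 higher in either. Of all genes, 28.6% were lower in control and 25.1% in MUNC genomic cells. Shmt2, the mitochondrial serine hydroxymethyltransferase, fell most in control cells, from 417 ± 47.2 to 77.4 ± 11.3 FPM (SD, n = 3, log2 -2.42). In MUNC spliced cells 2 were higher and 2 lower, about the shares of all genes. The interaction with differentiation was called higher for 8, called lower for 0 and not called for the other 4. Cth, which makes cysteine from cystathionine, was 2.20 lower in MUNC spliced than in control cells in GM (12.9 against 66.3 FPM). Mthfd2, a mitochondrial folate enzyme, was 1.48 higher in MUNC genomic than in control cells in DM3.

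Of 10 amino acid transporters, 6 fell and 0 rose on differentiation in control cells, and the same counts held in MUNC genomic cells, while 4 rose and 1 fell in MUNC spliced cells. Of all genes, 28.6% fell in control and 25.1% in MUNC genomic cells, and 17.2% rose and 18.4% fell in MUNC spliced cells. Slc7a5, the light chain of the leucine transporter, went from 383 ± 71.2 to 115 ± 13.3 FPM in control cells (log2 -1.72) and in MUNC spliced cells averaged 247 ± 35.0 and then 333 ± 98.0 FPM. Its interaction of 2.11 was the highest of the transporters (adjusted p = 0.000544).

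Of 10 tested further factors and effectors, 3 rose and 2 fell in control, 5 rose and 0 fell in MUNC spliced, and 2 rose and 2 fell in MUNC genomic cells. The control and MUNC genomic counts were near or under the shares of all genes, and those of MUNC spliced cells stand beside 17.2% and 18.4%. Gdf15, a secreted stress cytokine, was higher than control in both lines. It averaged 1.63 FPM in control GM, 14.3 in MUNC spliced GM (log2 2.40) and 23.7 in MUNC genomic GM (log2 3.24), and it was also higher in DM3 (log2 2.27 and 1.99). Fgf21, another secreted target, went from a mean of 0.455 to 14.3 ± 8.69 FPM in MUNC spliced cells (log2 3.27, adjusted p = 0.000267). That GM mean lies under the 0.5 FPM of the filter. Fgf21 was also called higher on differentiation in MUNC genomic cells, from a mean of 1.25 to 3.68 FPM (log2 1.34, adjusted p = 0.0453).

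Upstream, 8 genes for eIF2 alpha, its kinases, its phosphatase subunits and its exchange factor were called in both directions, with 2 higher and 3 lower in control, 2 and 1 in MUNC spliced, and 2 and 3 in MUNC genomic cells. The shares of all genes were 29.6% and 28.6%, 17.2% and 18.4%, and 26.3% and 25.1%. Eif2ak2 (PKR, the kinase for double-stranded RNA) rose in control (log2 2.28) and MUNC spliced cells (log2 2.64). In MUNC genomic DM3 it averaged 82.7 ± 7.63 FPM against 379 ± 71.7 FPM in control DM3 (log2 -2.17, adjusted p = 1.13e-06), and its change differed from that of control cells (interaction -1.92, adjusted p = 0.00121). Eif2ak3 (PERK, the ER kinase) was lower in MUNC spliced than in control DM3 (log2 -1.09). Eif2s1, eIF2 alpha itself, fell in all 3 kinds of cell (log2 -1.20, -0.46 and -1.15 in control, MUNC spliced and MUNC genomic).

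The list of ER chaperones and regulators of the ATF6 and XBP1 arms, to which Hspa5 belongs by function, had counts at or under the shares of all genes. Of 21 tested, 3 rose and 4 fell in control, 3 rose and 2 fell in MUNC spliced, and 3 rose and 0 fell in MUNC genomic cells, with medians of -0.23, -0.16 and -0.14. Atf6 rose in all 3 (log2 0.89, 0.96 and 1.01). The interaction of MUNC spliced with differentiation was called in 1 in each direction, Herpud1 (0.92) and Syvn1 (-0.68).

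**Figure D3:**
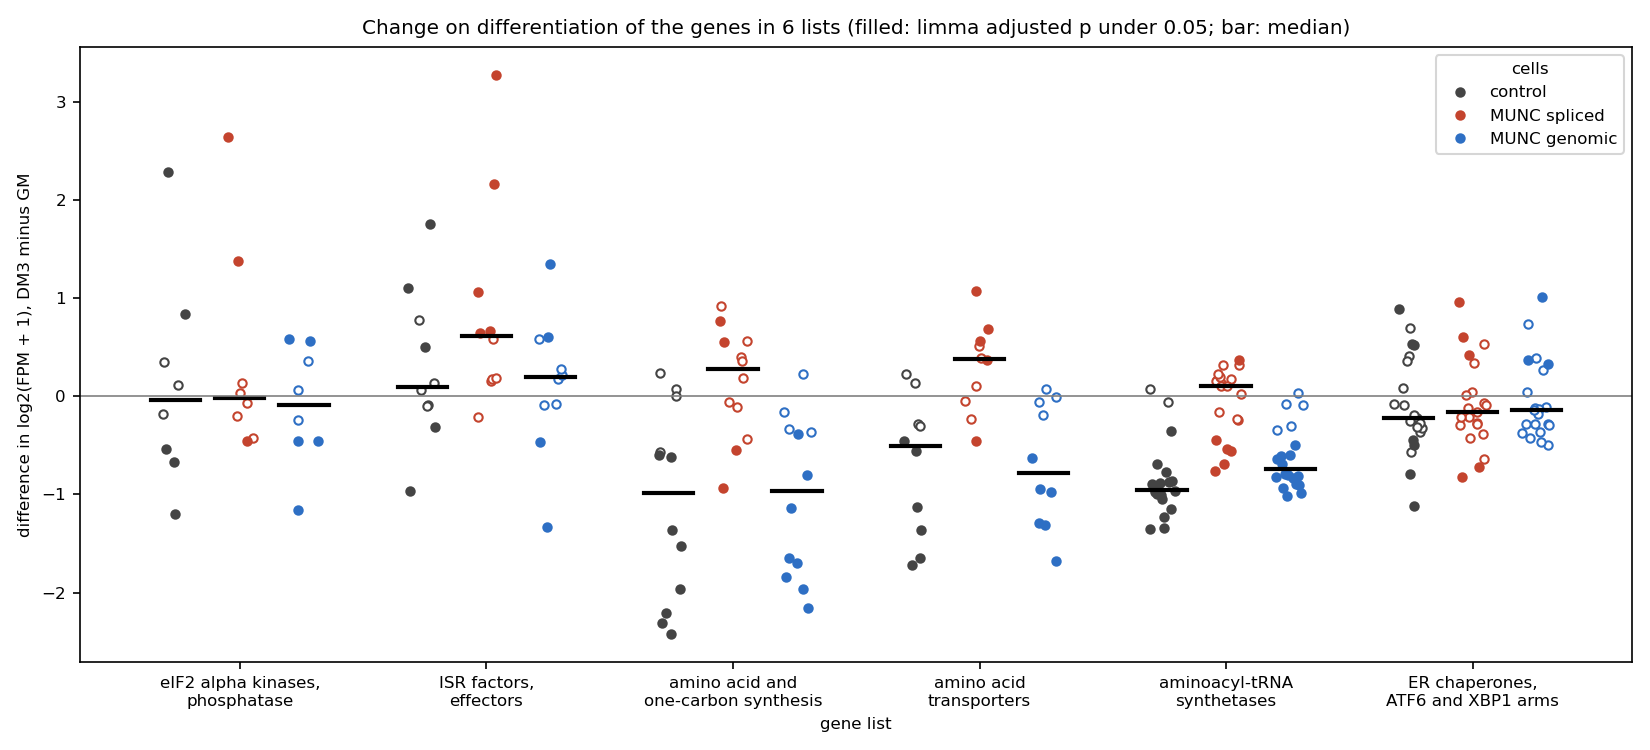
Difference in log2(FPM + 1) between DM3 and GM (vertical axis) for each tested gene of 6 lists (horizontal axis), in control, MUNC spliced and MUNC genomic cells. Filled points passed limma's adjusted p under 0.05, and bars are medians. For the synthetases the medians are -0.96, 0.10 and -0.74.

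Within groups, many of the 10 genes were high or low in the same libraries. Control GM replicate 2 held the highest value of its group for 9 of the 10 genes, MUNC spliced DM3 replicate 2 the lowest for 8, and MUNC genomic DM3 replicate 2 the lowest for 9. Over the 18 libraries, deviations from the group mean gave a Pearson r of 0.91 for Chac1 with Trib3, and a median of 0.69 (0.19 to 0.91) over the 10 pairs of Ddit3, Atf3, Chac1, Trib3 and Sesn2. Among Asns, Psat1 and Phgdh the 3 values ran from 0.54 to 0.80. Between those sets the median was 0.36, and Asns was as close to Trib3 (0.81) as Psat1 was to Phgdh (0.80). Hspa5 had values from -0.24 to 0.51 with the others (median 0.11). These are descriptions over 18 libraries that share size factors and replicate numbers.

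**Figure D4:**
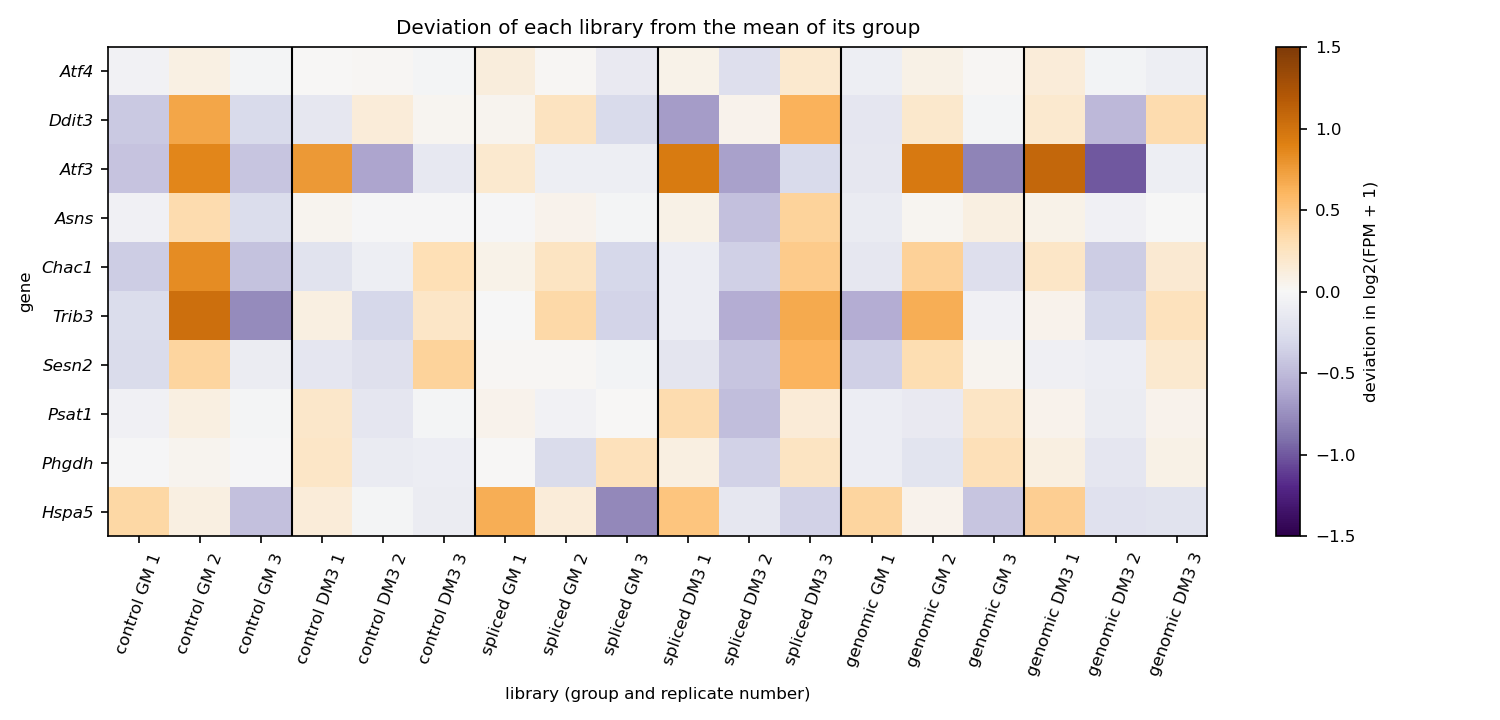
Deviation of each of the 18 libraries (columns, by group and replicate) from its group mean in log2(FPM + 1), for the 10 genes (rows). Chac1 and Trib3 are both high in control GM replicate 2 and in MUNC spliced DM3 replicate 3, while Hspa5 is high in replicate 1 of every group.

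Across all 18 libraries, the levels of Nars (r = 0.918), Gars (0.914), Asns (0.904), Tmem209 (0.870) and Dlat (0.867) were the most like those of Atf4 of 13868 genes ranked. Phgdh ranked 23 (0.816) and Psat1 38 (0.790), while Ddit3 had an r of -0.289 and Sesn2 of -0.107. The 5 other genes most like the mean of the 10 were Slc1a4 (0.865), Cth (0.845), Otub2 (0.820), Lmo4 (0.819) and Maats1 (0.819). These values carry the differences between the 6 groups and the depth of the libraries, and they are given with no test.

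In the authors' deposited tables, which cover 5 of the comparisons, 6 of the 10 genes passed an adjusted p under 0.05 for control DM3 against GM, where limma called 5. Hspa5 was the additional one there, with a log2 fold change of -0.557 and an adjusted p of 0.0221 in the authors' deposited table. For MUNC spliced against control, the authors' deposited tables called 7 genes in GM and 4 in DM3, where limma called 6 and 2 of the same genes. The additional ones were Atf3 in GM (-1.12) and Chac1 (0.737) and Trib3 (0.745) in DM3, all from the authors' deposited tables. For MUNC genomic against control, the authors' deposited tables called 2 in GM and 6 in DM3, where limma called 3 and 6, and Trib3 in GM (-1.23, adjusted p = 0.217) was the one not called there.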

How the data were processed

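Poly(A) RNA-seq of 18 C2C12 libraries was used. Per the submitters' processing notes, STAR, HTSeq and DESeq2 were used with the mouse build mm10 (GRCm38), and their versions, the annotation and the strand setting are not given in the sources used here. The deposited signal table holds the authors' FPM, read counts divided by 1 size factor per library. Whole reads were recovered for 100% of its values within 0.05 read, and these counts served edgeR 4.0.16 and DESeq2 1.42.0 as alternatives. The authors' deposited tables also give log2 fold changes and adjusted p-values. Groups were taken from the sample titles, because the source label disagrees with the title in 9 samples. The labels call the replicates biological but name no separate cultures, so p-values measure the spread between these libraries.

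The test was limma 3.58.1 (R 4.3.3) with trend on log2(FPM + 1), over 13869 genes with at least 0.5 FPM in at least 3 libraries, all 18 libraries, 6 group means and 12 residual degrees of freedom. P-values were adjusted over all genes within each of 12 comparisons, of which the contrast of the change on differentiation of MUNC spliced with that of MUNC genomic was added after the data were seen. The script was tested on simulated data. The genes and lists were chosen with earlier results of these data known, so their counts beside the shares of all genes do not test the lists. All 10 genes are named, and of each list the called genes with the highest and lowest difference per comparison could be named.

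The labels number the biological replicates. Deviations of same-numbered libraries from their group means correlated above 0.1 in all 3 pairs for control DM3 with GM (0.203 to 0.411), for MUNC spliced with control (GM 0.495 to 0.711, DM3 0.171 to 0.340), for MUNC genomic with control (GM 0.494 to 0.726, DM3 0.274 to 0.448) and for MUNC spliced with MUNC genomic in GM (0.456 to 0.727), so there the numbers pair the samples. In the other comparisons of groups at least 1 pair was lower. Depth was 38416702 to 68788327 reads per library, so that 3 reads are at most 0.0757 FPM. Promoter windows are from RefSeq and gene positions from GENCODE M21, both on GRCm38.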

Additional observations from a re-analysis of the deposited data

Results flagged for a closer look

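The change on differentiation differed between lines for 13 combinations of gene and comparison by a limma interaction test (adjusted p under 0.05). Against control cells, the change in MUNC spliced cells was higher by 1.03 for Atf4, 1.62 for Asns, 1.64 for Chac1, 2.18 for Trib3, 2.02 for Psat1 and 1.29 for Phgdh on the log2(FPM + 1) scale. Against MUNC genomic cells, it was higher by 0.64 for Atf4, 1.79 for Ddit3, 1.26 for Asns, 1.81 for Chac1, 2.36 for Trib3, 1.92 for Psat1 and 0.85 for Phgdh. Both comparisons use the same MUNC spliced libraries, so the values are not independent of each other. Single outlying libraries were not tested for, since each group holds 3 libraries.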

How the results depend on the processing

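Of the 120 combinations of the 10 genes and 12 comparisons, the 65 called in the test of the report or in an alternative with all replicates were followed further. Of the 56 called, 37 held in every alternative and every fit without 1 library, and none of the 65 changed direction. The counts of genes called moved by over 1.5 times as follows. For MUNC genomic against control in GM, 3 were called, and 0 with no filter on low values, 1 with equal library sums, 1 with only the groups compared, and 0 to 3 with 1 library left out. For MUNC spliced against control in DM3, 2 were called, and 1 with no filter, 4 with DESeq2, and 1 to 4 with 1 library left out. Leaving out 1 library gave 3 to 5 for MUNC genomic DM3 against GM, 3 to 5 for MUNC genomic against control in DM3, and 0 to 1 for the interaction of MUNC genomic with differentiation. The cause was not tested, beyond the fewer samples. With the replicate block the count was 6 in place of 5 for control DM3 against GM, 7 in place of 6 for MUNC spliced against control in GM, 4 in place of 3 for MUNC genomic against control in GM and 3 in place of 2 for MUNC spliced against control in DM3. In MUNC spliced DM3 against GM, where the numbers do not pair the samples, the block added Phgdh (-0.42, adjusted p = 0.0136), and it changed no other call. No scaling moved the median of all genes by over 0.1. Some of the 10 genes moved further in MUNC spliced against control in GM. There Atf4 ran from -0.80 to -0.58 and Psat1 from -0.85 to -0.63 over the alternatives with all replicates, and both stayed called. A group left with 1 library fewer is assumed to vary like the other groups. Depth limits little here, since every value of the 10 genes rests on at least 118 reads.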
